A study of Gossypium hirsutum with 15 samples.

Results

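The comparison described here set fibers of the cotton mutant *im* at 22 days post-anthesis (DPA) against fibers of the same mutant at 16 DPA. Its members were the *im* channels of 6 of the 15 dual-dye cDNA arrays of the series, 3 at 22 DPA and 3 at 16 DPA, chosen by stage and line from the sample labels. The interval was taken as one step across the time when wall thickening starts, and the 3 arrays of 19 DPA took no part in the contrast. Each array carried fiber RNA of *im* in one dye and of TM-1 in the other. The study grew both lines in the field to compare their fibers from 13 to 25 DPA.

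The immature fiber mutant *im* is a near-isogenic line in the background of TM-1, the genetic standard line of Upland cotton (*Gossypium hirsutum*). Its fibers are thin-walled at maturity. The *im* group at 22 DPA and the *im* group at 16 DPA therefore had the same genotype and differed in boll age. In field plants, bolls of different age also differ in the date of flowering or of collection. Conditions that changed with the date cannot be told apart from age here. TM-1 was present at the same ages on the same slides. RNA came from pools of plants. The methods name 3 biological pools per stage, but describe the arrays as 2 biological replicates with a dye swap. Where a swap reused an extract, the p-values measure technical spread in part. The sample labels give fiber as the tissue, whereas the series text gives ovules bearing fibers, and markers of ovule cells could not be checked because the files do not pair spots with genes.

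A cotton fiber is a single cell of the seed coat. It elongates while it has a thin, extensible primary wall, a phase in which expansins loosen the wall and enzymes of very-long-chain fatty acid synthesis are active. It then deposits a thick secondary wall (SCW) of almost pure cellulose, made at the plasma membrane by cellulose synthase complexes from UDP-glucose that sucrose synthase can supply. The age at which a fiber passes from one phase to the other is what the stages of this series bracket. The lists of SCW, elongation, defence, flavonoid, ovule and leaf genes prepared for this comparison were not analysed, since no table used here names the genes of the spots. The unit below is therefore the cDNA probe, given by its spot name, and no probe sequence was used here.

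The source names, read in their order, put *im* in Cy5 on replicates 1 and 3 and in Cy3 on replicate 2, and this assignment was used. At 22 DPA, log2(Cy5/Cy3) over the probes had a correlation of -0.604 and -0.685 between replicate 2 and the other replicates, and of 0.729 between replicates 1 and 3. At 16 DPA the values were -0.734 and -0.759 for replicate 2 and 0.77 for replicates 1 and 3. The labels do not settle which line is which. The dye labels put *im* in Cy5 on all arrays, which leaves no swap, although the ratios of replicate 2 ran opposite to those of the other replicates. The material labels exchange the lines at 22 and 16 DPA and leave the other stages as they are, whereas the methods, which name Cy5 for TM-1, exchange them at every stage. Under either exchange, the 22 and 16 DPA values given for *im* below are those of TM-1 and the reverse, and the direction of time is not affected. Under the material labels the values of 13, 19 and 25 DPA keep their line, so a course over the stages would join different channels.

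Between 13761 and 16792 probes were measured per array at 22 DPA and between 14937 and 17371 at 16 DPA, a probe being measured where at least 1 dye reached 400 units over local background. Of 29184 cDNA probes, 14163 (48.5%) were measured on at least 2 arrays of each stage and were tested. A further 9093 (31.2%) were faint in both dyes on all 6 arrays, and 5928 (20.3%) were measured on too few. The *im* channels correlated at 0.897 to 0.919 within a stage and at 0.701 to 0.796 between the stages. The files of 22 DPA replicates 1 and 2 and of 16 DPA replicate 1 held no negative spot flags, unlike the other 3, and this split is carried along below. The sources used here do not say what the flags mean.

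Fiber transcripts of *im* changed in both directions between the stages. A differentially expressed gene (DEG) was a probe with a Benjamini-Hochberg adjusted p under 0.05 in limma and a fold change of at least 2. At 22 DPA, 974 probes were higher than at 16 DPA, which is 6.88% of the probes tested, and 1097 were lower, which is 7.75%. The median fold change was 3.14 among the rising and 2.95 among the falling DEGs. At least 4-fold changes were found for 274 rising and 275 falling DEGs, and at least 8-fold changes for 51 and 54. The change of all probes tested ranged from -4.4 to 6.05 on the log2 scale, with a median of -0.1 and a median SE of 0.42. An unadjusted p under 0.05 was reached by 3958 probes.

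**Figure D1:**
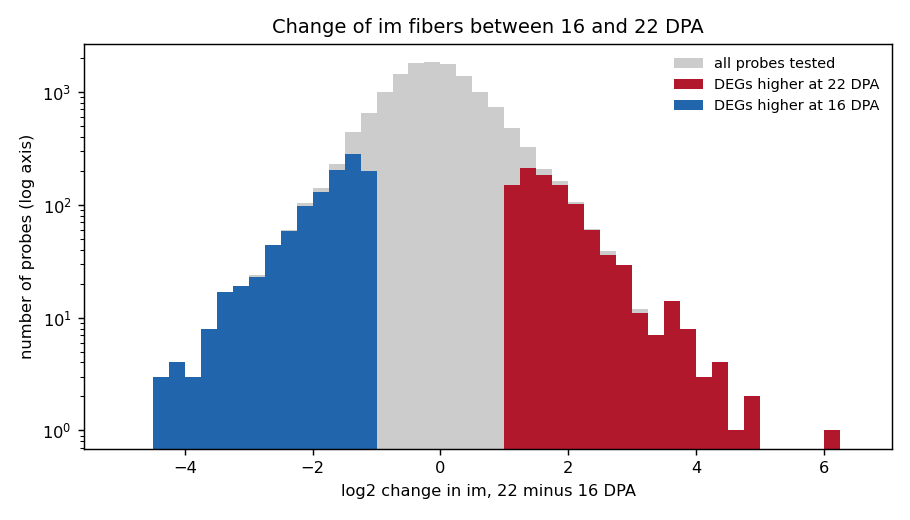
Distribution of the log2 change in *im* fibers, 22 minus 16 DPA, over the 14163 probes tested (grey), with the 974 rising DEGs in red and the 1097 falling DEGs in blue. The vertical axis counts probes in bins of the log2 change and is logarithmic, and a positive value means higher at 22 DPA.

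Which direction held more DEGs was not a stable feature of the data. Rising DEGs made up 47% of the calls. The falling DEGs numbered 587 without 22 DPA replicate 1, 664 without 22 DPA replicate 2 and 655 without 16 DPA replicate 2. The rising DEGs then numbered 795, 654 and 732, so that they were the more numerous without the first or the last of these arrays. Without Aquantile scaling between arrays, rising DEGs were 404 and falling ones 944, a share of 30% rising, and the median change of all probes was -0.29 in place of -0.1. Counts of each direction are for this reason given here relative to the scaling used.

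On single arrays the stages were well apart for most DEGs. Of the rising DEGs, 879 were measured on all 6 arrays, and for 868 of them the lowest value at 22 DPA lay above the highest at 16 DPA. Of the falling DEGs, 934 were measured on all 6 and 907 had every 22 DPA value below every 16 DPA value. Among all 11184 probes measured on all 6 arrays, 2008 (18%) had the 3 values of 22 DPA above those of 16 DPA, and 2428 (21.7%) had them below. The calls rest on the same values as these counts, so the counts describe the DEGs and do not test them.

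Arrays that did not enter a call moved the same way. Each array was left out in turn, the DEGs were called again without it, and its *im* values were set against the mean of the other stage. Rising DEGs moved in the called direction in 97.9% to 100% of cases and falling DEGs in 97.5% to 99.8%. Over all probes tested, 38.2% to 55.5% lay in the rising direction on the same arrays. A 2-fold change or more was reached on the left-out array by 73.3% to 92.8% of rising and 56.6% to 93.3% of falling DEGs. The matching share over all probes tested was not counted, so these shares have no background to be judged by. The lowest of these shares was that of 22 DPA replicate 3, where the falling DEGs had a median log2 change of -1.12 and 944 of 968 were lower than at 16 DPA. The arrays of the other stage are common to the call and the check.

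Within the files without negative flags, 2 arrays of 22 DPA stood against 1 of 16 DPA. The DEGs had been called on these same 6 arrays, so a common direction was largely fixed by the choice. All 907 rising DEGs measured there were higher at 22 DPA, with a median of 1.84, and all 1093 falling DEGs were lower, with a median of -1.68. Within the files with such flags, 1 array of 22 DPA stood against 2 of 16 DPA, and 972 of 972 rising and 1078 of 1080 falling DEGs kept their direction, with medians of 1.69 and -1.38. Of all probes tested, 47.6% were higher at 22 DPA in the files without negative flags and 49.7% in the others. With the file type as a block, 1085 DEGs rose and 1029 fell.

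The stages on either side gave values from arrays outside the contrast, but not outside the fit. All arrays shared the scaling and the estimate of spread, so a probe of small spread is favoured in both calls. The shares called are therefore a description. Between 25 and 13 DPA, 644 of 14551 probes tested in *im* rose (4.43%) and 1319 fell (9.06%). Of the DEGs falling between 22 and 16 DPA, 989 could be tested there, and 608 (61.5%) were called lower at 25 DPA and 0 higher. Their median log2 change was -1.42, against -0.2 over the 13199 probes tested in both comparisons. Of the DEGs rising between 22 and 16 DPA, 921 could be tested, and 367 (39.8%) were called higher at 25 DPA and 1 lower, with a median of 0.99. A value of the same sign was found for 980 falling DEGs (99.1%) and 848 rising DEGs (92.1%), where 60.1% of all probes tested in both were lower and 39.9% higher at 25 DPA. By the material labels, 750 DEGs were called the same way between 25 and 13 DPA, against 975 by the source names. The material labels give another list, of 888 rising and 1257 falling DEGs. They also take the DEGs from the other channel than the 25 and 13 DPA values. These counts are therefore not like for like and do not decide between the labels.

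The course over the 5 stages is given relative to 16 DPA, a stage whose arrays also chose the DEGs. Relative to 16 DPA, the rising DEGs had a median log2 level in *im* of 0.37 at 13 DPA, 0.76 at 19 DPA, 1.65 at 22 DPA and 1.39 at 25 DPA. The falling DEGs stood at 0 at 13 DPA, -0.9 at 19 DPA, -1.56 at 22 DPA and -1.4 at 25 DPA. All probes tested stood at 0.15, -0.16, -0.1 and -0.02 at the same stages. The rising DEGs thus had their lowest median at 16 DPA, and the falling DEGs had the same median at 13 and 16 DPA. The 16 DPA arrays serve as the base of every one of these values and also chose the DEGs. Low 16 DPA values favour a rising call and high ones a falling call. The 13 DPA medians therefore cannot show a difference in course between the lists.

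At 19 DPA most DEGs lay on the way between the stages. The 19 DPA mean fell between the 16 and 22 DPA means for 703 of 945 rising DEGs (74.4%) and 835 of 1051 falling DEGs (79.4%). It was beyond the 22 DPA mean for 9.84% and 11.9%. It had not left 16 DPA in the direction of change for 15.8% of rising and 8.66% of falling DEGs. By 19 DPA, at least 0.5 of the log2 change had been reached by 420 rising (44.4%) and 562 falling DEGs (53.5%). At 13 DPA, 730 of 926 rising DEGs (78.8%) and 1060 of 1097 falling DEGs (96.6%) were within 2-fold of their 16 DPA mean. At 25 DPA, 686 of 966 rising (71%) and 739 of 989 falling DEGs (74.7%) were still at least 2-fold from it in the called direction. Over all probes tested, the quartiles of the log2 level relative to 16 DPA were -0.1 and 0.43 at 13 DPA. At 25 DPA they were -0.58 and 0.54. Being within 2-fold of 16 DPA was thus common at 13 DPA and not particular to the DEGs. The matching shares over all probes were not counted. The mean correlation of an *im* channel with the others of its stage reached 0.824 to 0.864 on the arrays of 19 DPA, while the arrays of 22 DPA had 0.905 to 0.914 and those of 16 DPA 0.899 to 0.91. The part of this in the shares was not tested.

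**Figure D2:**
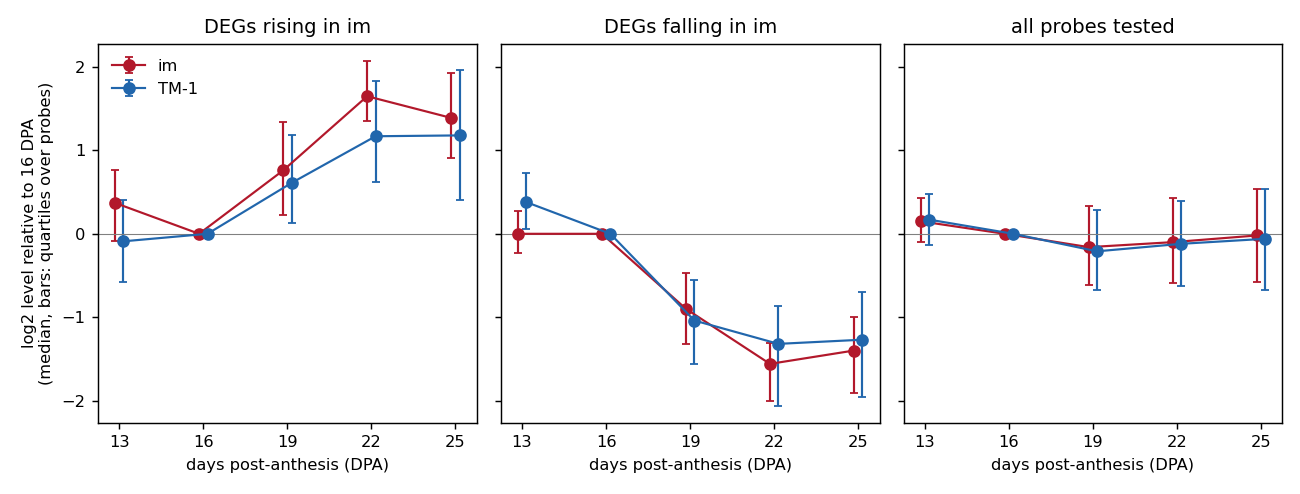
Median log2 level relative to 16 DPA at each of the 5 stages for the DEGs rising in *im* (left), those falling in *im* (middle) and all probes tested (right), with bars for the quartiles over probes, *im* in red and TM-1 in blue. In *im* the rising DEGs reach 1.65 at 22 DPA and the falling ones -1.56, and the quartiles over all probes tested span 0 at every stage.

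TM-1 changed as much as *im* in number of probes. In the TM-1 channels of the same 6 arrays, 888 probes rose and 1257 fell between 22 and 16 DPA, together 15.1% of those tested. Of the 974 rising DEGs of *im*, 494 were called rising in TM-1 as well, which is 50.7% of the *im* list and 55.6% of the TM-1 list. Of the 1097 falling DEGs of *im*, 631 were called falling in TM-1, which is 57.5% of the *im* list and 50.2% of the TM-1 list. On the log2 scale, the rising DEGs had a median change in *im* of 1.65, with 1.17 for TM-1, and the falling DEGs one of -1.56, with -1.32 for TM-1. Together 1125 of the 2071 DEGs of *im* (54.3%) were called the same way in both lines and so keep their call when the lines are exchanged. The lines shared slides, and the DEGs were chosen on *im*.

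Whether the change differed between the lines was tested on log2(*im*/TM-1) within arrays, as the contrast between 22 and 16 DPA. The change was called different at 1638 probes, 11.6% of those tested, with 960 in which *im* rose relative to TM-1 and 678 in which it fell. Under the exchange of the lines these 2 counts change places. Of the 1638 probes, 514 were also DEGs of *im*. Of the rising DEGs of *im*, 289 rose more than in TM-1 and 66 rose less. Of the falling DEGs, 124 fell more in *im* and 35 fell less. The *im* values enter both the choice of the DEGs and this test, so the shares are a description. For 619 rising and 938 falling DEGs the difference did not pass, which does not show equal changes.

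Of the 1638 probes, 223 were at least 2-fold apart between the lines at 22 DPA and 755 at 16 DPA. The 289 DEGs that rose more in *im* had a median log2(*im*/TM-1) of 0.28 at 22 DPA and -1.3 at 16 DPA. At 22 DPA 272 of them were within 2-fold of TM-1, and at 16 DPA 201 were at least 2-fold lower in *im*. Their median change was 1.9 for *im* and 0.29 for TM-1, and a smaller change in TM-1 was fixed by their choice. The 124 DEGs that fell more in *im* mirrored this, with a median of -0.1 at 22 DPA and 1.16 at 16 DPA. At 22 DPA 115 of them were within 2-fold of TM-1, and at 16 DPA 77 were at least 2-fold higher in *im*. The 66 DEGs that rose less in *im* had a median of -0.48 at 22 DPA and 1 at 16 DPA. Their median change was 1.8 for *im* and 3.25 for TM-1, and all 66 were DEGs of TM-1 too. Since these 66 were chosen by a rise in *im* and a shift of at least 2-fold toward TM-1, the larger rise in TM-1 was fixed. Their calls in TM-1 were largely fixed as well. The 35 that fell less went the other way, with a median of 0.98 at 22 DPA and -0.33 at 16 DPA, and 17 of them were at least 2-fold apart at 22 DPA and 6 at 16 DPA. Over all probes tested, 466 were at least 2-fold apart between the lines at 22 DPA and 1256 at 16 DPA.

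A total of 8 probes were called in opposite directions in the lines, and in all 8 *im* rose while TM-1 fell. Probes chosen by rule for their change in *im* or for their shift are given next by their normalised intensity on each array, in units after loess and Aquantile and in the order of replicates 1, 2 and 3.

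Probe-384P75_F_15 had the largest rise among DEGs over 400 units on all 6 arrays with no overlap. It read 20719, 20336 and 22138 units in *im* at 22 DPA, against 971, 839 and 1000 units in *im* at 16 DPA. All 3 arrays of 22 DPA were far above all 3 of 16 DPA. The rise was 22.5-fold, or 4.49 ± 0.42 on the log2 scale (SE, n = 3 arrays per stage, adjusted p = 1.79e-08 in limma). In *im* the probe read 420 to 605 units at 13 DPA, 6969 to 9596 units at 19 DPA and 21091 to 25674 units at 25 DPA, so that 13 and 16 DPA formed a low level and 22 and 25 DPA a high one. TM-1 read 14898, 16062 and 14908 units at 22 DPA, against 7301, 8067 and 8821 units at 16 DPA, a log2 change of 0.93 (adjusted p = 0.143). It read 431 to 979 units at 13 DPA, 19995 to 27657 units at 19 DPA and 9125 to 11450 units at 25 DPA, so that its highest values were those of 19 DPA. The change of *im* exceeded that of TM-1 by 3.57 ± 0.28 on the log2 scale (adjusted p = 3.39e-07). Under the exchanged labels the large rise is that of TM-1, and the change of *im* is 0.93.

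Probe-384P46_D_14 had *im* signal at 22 DPA and none over the limit at 16 DPA. It read 4971, 3940 and 4982 units in *im* at 22 DPA, against 192, 295 and 142 units in *im* at 16 DPA. The low values are bounds, since 400 units was the limit, and the probe was measured at 16 DPA through its TM-1 signal. Set against the lowest normalised value among probes over the limit, *im* was at least 13.9-fold higher at 22 DPA (adjusted p of the fit = 2.42e-07). TM-1 read 3428, 3248 and 2986 units at 22 DPA, against 1719, 2527 and 2328 units at 16 DPA. The lines overlapped neither at 22 DPA, where *im* was higher, nor at 16 DPA, where TM-1 was. The fitted difference in change was 3.95 (adjusted p = 5.47e-07), but with *im* at its bound the values support a difference of at least 3.23. By the material labels the change in *im* was 0.57 and did not pass (adjusted p = 0.449). At 13 DPA the spot was faint in both dyes on all 3 arrays.

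Probe-384P53_B_12 had the largest fall by the same rule. It read 552, 1035 and 1267 units in *im* at 22 DPA, against 18111, 16868 and 19958 units in *im* at 16 DPA. Every array of 22 DPA was far below every array of 16 DPA, and the fall was 20.4-fold, or -4.35 ± 0.48 on the log2 scale (adjusted p = 3.88e-07). At 19 DPA *im* read 6112 to 9551 units, a level between those of 16 and 22 DPA. TM-1 read 496, 872 and 860 units at 22 DPA, against 6401, 5687 and 11622 units at 16 DPA, and 442 to 1375 units at 19 DPA. TM-1 thus stood at its low level at 19 DPA, where *im* did not. The log2 change of TM-1 was -3.38 (adjusted p = 9.15e-06), and the difference in change between the lines of -0.96 stayed under 2-fold (adjusted p = 0.0217).

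Probe-384P20_G_18 had *im* signal over the limit at 16 DPA and none at 22 DPA. It read 131, 323 and 237 units in *im* at 22 DPA, against 1120, 1118 and 1009 units in *im* at 16 DPA. The 16 DPA arrays were close together and above all 22 DPA arrays. The level was at least 3.62-fold lower at 22 DPA (adjusted p of the fit = 0.00486). TM-1 read 504, 513 and 326 units at 22 DPA, against 2298, 1479 and 1436 units at 16 DPA, with a log2 change of -1.95 (adjusted p = 0.0153). The difference in change between the lines did not pass (adjusted p = 0.446), and the *im* values at 22 DPA are bounds. On all 3 arrays of 19 DPA the spot was faint in both dyes. At 25 DPA it was faint in both dyes on replicates 1 and 2, but replicate 3 read 724 units in *im* and 504 units in TM-1. Without the filter on faint spots its change in *im* was -1.96 and no longer passed (adjusted p = 0.0582).

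Among probes measured on all 6 arrays with both dyes over the limit, the 2 with the largest shift toward *im* moved in opposite directions in the lines. Probe-384P17_P_09 read 3956, 3283 and 3463 units in *im* at 22 DPA, against 779, 835 and 1165 units in *im* at 16 DPA. In TM-1 it read 1257, 1066 and 1413 units at 22 DPA, against 5481, 5947 and 7560 units at 16 DPA. The stages did not overlap in either line, and the line with the higher signal was *im* at 22 DPA and TM-1 at 16 DPA. The log2 change of *im* was 1.96 (adjusted p = 0.00106) and that of TM-1 -2.34 (adjusted p = 0.000124), a difference of 4.3 ± 0.24 (adjusted p = 9.87e-09). At 13 DPA both lines were low, at 670 to 963 units in *im* and 727 to 1038 units in TM-1. At 25 DPA *im* read 804 to 2099 units and TM-1 353 to 902 units, so that the signal was raised for part of the course in both lines.

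Probe-384P54_M_05 read 1946, 5866 and 2832 units in *im* at 22 DPA, against 1120, 1147 and 1298 units in *im* at 16 DPA. In TM-1 it read 536, 1708 and 1364 units at 22 DPA, against 6566, 6264 and 6469 units at 16 DPA. Replicate 2 was the highest of 22 DPA in both lines. Both lines were high at 19 DPA, with 5354 to 9722 units in *im* and 7565 to 8577 units in TM-1. The log2 change of *im* was 1.43 (adjusted p = 0.0326) and that of TM-1 -2.58 (adjusted p = 0.000162), and the difference was 4 ± 0.25 (adjusted p = 3.14e-08).

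Among the same probes, the 2 with the largest shift toward TM-1 rose in that line. Probe-384P45_G_04 read 6839, 7698 and 8068 units in *im* at 22 DPA, against 2431, 2669 and 3889 units in *im* at 16 DPA. In TM-1 it read 11955, 13912 and 14913 units at 22 DPA, against 514, 797 and 1062 units at 16 DPA. Both lines rose without overlap, by 1.36 in *im* (adjusted p = 0.0124) and 4.16 in TM-1 (adjusted p = 8e-09), and the change of *im* was smaller by a difference of -2.8 ± 0.2 (adjusted p = 1.42e-07). In both lines the 16 DPA level was below that of 13 DPA, which was 2336 to 4083 units in TM-1 and 4550 to 6919 units in *im*.

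Probe-384P44_H_05 read 801, 6687 and 7049 units in *im* at 22 DPA, against 3319, 3791 and 4141 units in *im* at 16 DPA. In TM-1 it read 1863, 14670 and 15878 units at 22 DPA, against 968, 1386 and 2383 units at 16 DPA. Replicate 1 of 22 DPA was far below the other two in both lines, and the stages overlapped in both. The change in *im* was -0.15 (adjusted p = 0.894) and that in TM-1 2.36 (adjusted p = 0.00253), while the difference between the lines, which is taken within each array, was -2.52 ± 0.2 (adjusted p = 7.58e-07). The 4 probes named for their change in *im* kept the sign of that change within each type of file. The 4 named for their shift kept the sign of the shift. All were chosen on these same arrays, so the signs were largely fixed by the choice. The change of probe-384P44_H_05 in *im* was -0.52 in the files without negative flags and 0.83 in those with them.

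**Figure D3:**
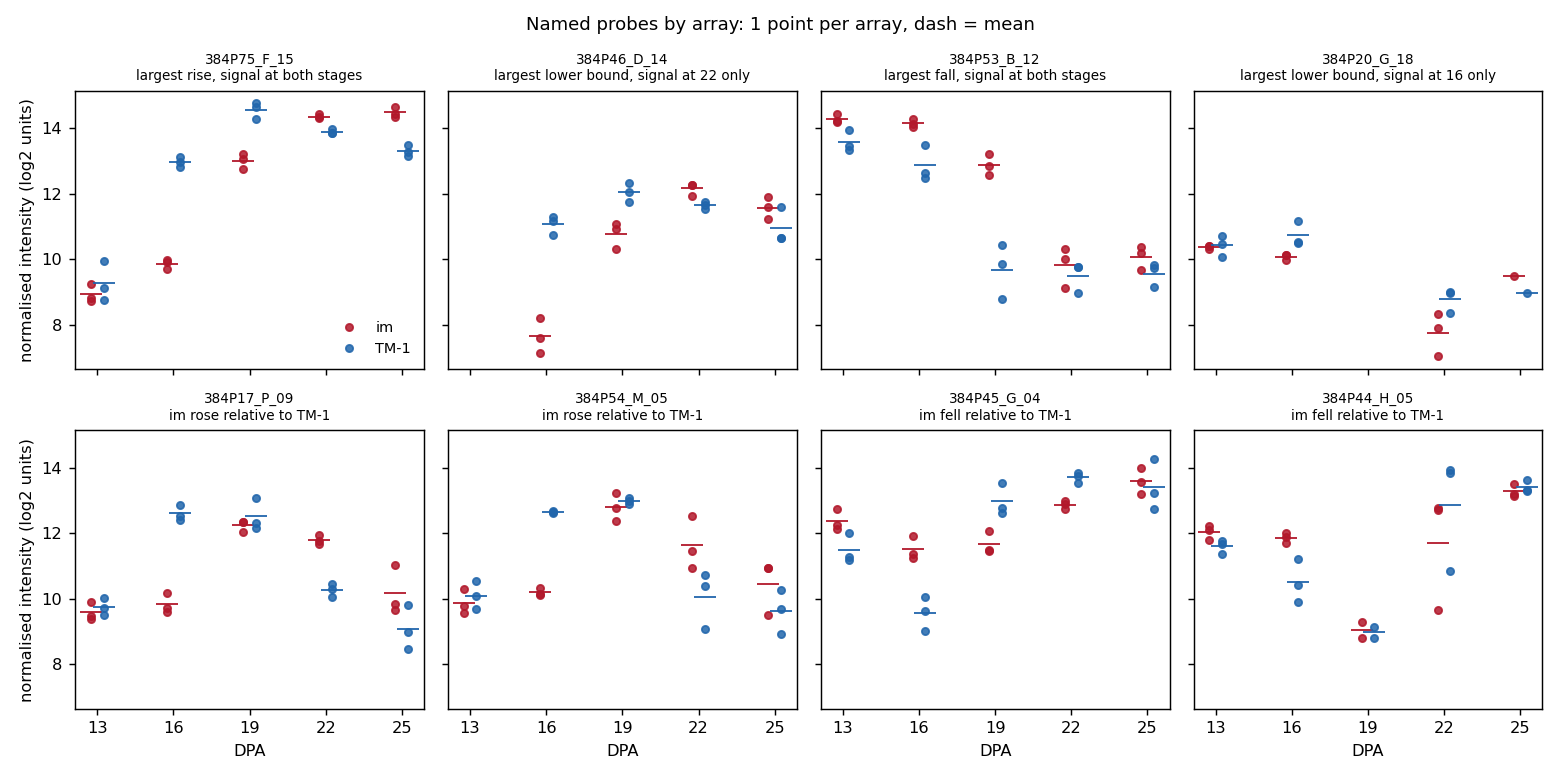
Normalised intensity (log2 units) of the 8 named probes at each of the 5 stages, with 1 point per array and a dash for the mean, *im* in red and TM-1 in blue. Upper row, probes named for their change in *im*, among them probe-384P75_F_15 with a log2 mean of 14.36 at 22 DPA and 9.87 at 16 DPA. Lower row, probes named for a difference in change between the lines, where the lines are on opposite sides at 22 and 16 DPA for probe-384P17_P_09 and probe-384P54_M_05.

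A few DEGs had signal at one stage only. In 47 rising DEGs the *im* channel was under 400 units on every measured array of 16 DPA and at or over it on every one of 22 DPA, and 29 of them were measured on all 6 arrays. Their lower bounds of the fold change had a median of 3.2 and reached 62.5, at a probe not measured on all 6 arrays. In 16 falling DEGs the signal was at 16 DPA only, with a median bound of 3.43 and a highest one of 7.16. Of these, 3 were measured on all 6 arrays. Probes that were faint in both dyes on all arrays of one stage could not be tested at all. There were 170 such probes with *im* signal at 22 DPA and 461 with *im* signal at 16 DPA. Of all DEGs, 744 rising and 967 falling had the *im* channel over the limit on every array that measured them, and among those with at least 8-fold changes 23 of 51 rising and 46 of 54 falling did.

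The share of DEGs differed with brightness. In 4 groups of equal size by mean intensity, from dim to bright, 3.76%, 17.5%, 20% and 17.3% of the probes tested were DEGs. The median SE of the log2 change was 0.47 in the dimmest group and 0.37 in the brightest. The median absolute log2 change was 0.41, 0.61, 0.59 and 0.51 from dim to bright. What part precision and size of change each had in the shares was not tested.

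The DEGs were spread unevenly over the 76 source plates that the spot names give. Rising DEGs were 0% to 23.4% of the probes tested on a plate, with a median of 6.12%, and falling DEGs were 0.595% to 15.4%, with a median of 7.44%. More DEGs fell than rose on 50 plates and more rose than fell on 23. Taken in 4 groups by plate number, rising DEGs were 5.03%, 6.14%, 5.67% and 10.1% of the probes tested, and falling DEGs were 8.76%, 7.96%, 9.34% and 4.97%. Plates 58 to 76 were thus the only group with more rising than falling DEGs, 377 against 185 of 3726 probes. Plate 73 had the highest share, with 43 rising DEGs. The median change of all probes tested on plates 58 to 76 was 0.04, against -0.18, -0.11 and -0.18 in the other groups. The sources used here do not say what each plate holds.

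**Figure D4:**
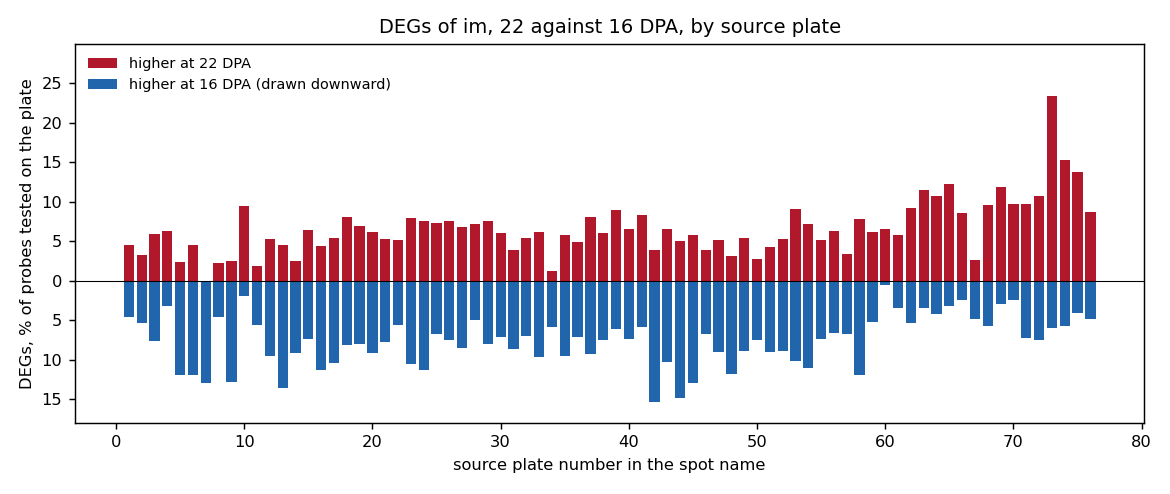
Share of the probes tested on each of the 76 source plates that were DEGs of *im*, in percent, with those higher at 22 DPA drawn upward in red and those higher at 16 DPA drawn downward in blue. The rising share is highest on plate 73, at 23.4%, and the falling share on plate 42, at 15.4%.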

How the data were processed

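RNA of *im* and TM-1 fibers was measured on 15 dual-dye cDNA arrays, 3 per stage. Scanning and spot reading were done by the authors with LuxScan. The deposited scanner files give, for 30000 spots per array, the intensity of spot and local background in both dyes, and 816 of them were control spots that did not enter. A deposited table holds log2 ratios of Cy5 over Cy3 made by the authors. Its columns correlated at 0.879 to 0.998 with log2(Cy5/Cy3) of their arrays, had medians of -0.014 to 0.018 and were not turned for the dye swap. The sources used here do not say which normalization steps it includes. It served only as an alternative. Per the submitters' processing notes, the tools were R 2.12.2 and limma 3.4.5.

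Here limma 3.58.1 in R 4.3.3 was run on the background-subtracted medians. Spots with neither dye at 400 units or more were removed, which is one way to read the stated limit, and lower values were raised to 50 units before log2. Saturated spots were kept. Loess within and Aquantile between arrays followed. The 30 channels entered one fit with 10 groups of line and stage and the array as a block (intraspot correlation 0.862, from at most 3000 probes). Probes measured on at least 2 arrays of each stage were tested with eBayes, and every adjusted p is from limma, by Benjamini-Hochberg over all probes tested. The difference in change between the lines was the contrast of log2(*im*/TM-1) per array, positive where *im* rose relative to TM-1. Precision is limited by the number of arrays. The scripts were tested on simulated data.

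Named probes were, per direction, the DEG of largest fold change with *im* over the limit on all 6 arrays and no overlap, the DEG with signal at one stage only on all 6 arrays with the largest bound, and for the difference between lines the 2 of largest shift with both dyes over the limit. A bound is the mean of the bright stage against, per array, the higher of the probe's own value and the lowest value among probes over the limit. The comparison, lists, rules and alternatives were chosen with earlier results of these data known, among them the choice of the source names for the lines. Gene lists and cell type markers were not analysed, since no table used here pairs spots with genes.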

Additional observations from a re-analysis of the deposited data

Results flagged for a closer look

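The change between 22 and 16 DPA differed between *im* and TM-1 at 1638 probes by limma's test of the difference itself. Of the probes named, 6 passed that test, of which 4 had been named for their shift, so that this was fixed by the choice. The difference, the change of *im* minus that of TM-1 on the log2 scale, was 3.57 at probe-384P75_F_15, 3.95 at probe-384P46_D_14, 4.3 at probe-384P17_P_09 and 4 at probe-384P54_M_05. It was -2.8 at probe-384P45_G_04 and -2.52 at probe-384P44_H_05. Within the files without negative flags and within those with them, the values were 3.32 and 3.78, 3.57 and 4.31, 4.45 and 4.06, 4.37 and 3.43, -3.07 and -2.7, and -2.95 and -2.3 for the same probes in the same order. At probe-384P46_D_14 these are fitted values against *im* signal under the limit at 16 DPA, and the bound gives a difference of at least 3.23. Each sign turns where the lines are exchanged.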

How the results depend on the processing

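With no filter on faint spots, 1574 DEGs rose and 1440 fell in *im*, TM-1 had 3283 DEGs, and 1767 of the DEGs were called the same way between 25 and 13 DPA, against 975. Without Aquantile 404 rose and 944 fell. By the dye labels with no swap, 321 rose and 506 fell, TM-1 had 1023 DEGs, and 452 were called between 25 and 13 DPA. The lines then differed at 0 probes in limma, with 65 at an unadjusted p under 0.05, and the rises of probe-384P75_F_15 (3.29, adjusted p = 0.0561) and probe-384P46_D_14 (3.4, adjusted p = 0.0687) no longer passed. By the material labels, the differences became -4.3 at probe-384P17_P_09, -4 at probe-384P54_M_05, 2.8 at probe-384P45_G_04 and 2.52 at probe-384P44_H_05, and 888 DEGs rose and 1257 fell. The cause was not tested, apart from the exchange itself.

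Without each array in turn, rising DEGs numbered 654 to 815 and falling ones 587 to 985, TM-1 had 1502 to 1883, and the lines differed at 1461 to 1815 probes. With spots of negative flags left out, 931 rose and 849 fell. The other alternatives kept each of these counts within 1.5 times. The ratios of the value table gave 1007 and 659 probes differing. Fits of the *im* channels alone have no TM-1 value, and quantile scaling or a limit on the *im* channel gives no ratio.

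The replicate numbers were not used as pairs in the main fit. Deviations from the stage mean correlated at -0.0208, 0.0585 and 0.11 for arrays with the same number, and at -0.167 to 0.101 for the others. Not every array correlated best with its own number. The deviations within a stage depend on each other, and replicate 2 is the dye swap at both stages. These values therefore cannot exclude a pairing. With a replicate block, 998 DEGs rose and 1133 fell, TM-1 had 905 and 1291, and 945 and 678 probes differed between the lines. Faint probes limit the comparison, since 400 units is a bound.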
